A study of Homo sapiens with 16 samples.

Results

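The clustered histone genes measured here are the 22 protein-coding genes whose symbol begins with HIST1H to HIST4H and which stood in all 4 of the authors' deposited tables, out of 19344 genes that stood in all 4. They comprise 2 linker histone genes, 4 H2A, 8 H2B, 3 H3 and 5 H4 genes, of which 18 lie in the HIST1 cluster on chromosome 6, 3 in the HIST2 cluster on chromosome 1 and 1, HIST4H4, on chromosome 12. GENCODE 29 annotates 71 such genes, of which 36 were listed in at least 1 table. The 14 listed in fewer than 4 tables had base means of 2.65 to 7.38 normalised counts, and none passed the test in any table that held it. The count of 22 therefore describes genes with enough reads to be listed throughout, not the whole family.

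The study sequenced poly(A) RNA of U2OS, a human osteosarcoma line, in 16 libraries that form 4 groups of 4. All cells were transfected with an siRNA, either a control (siControl) or one against the transcription factor RFX7 (siRFX7), and all were then kept for 24 h in DMSO, the solvent, or in 10 µM Nutlin-3a. Nutlin-3a keeps MDM2 from binding p53, which raises p53, and the design asked which transcripts depend on RFX7 with and without it. Each of the authors' deposited tables compares 2 groups of 4 libraries and holds no value of a single library, so every error below is the authors' standard error (SE), and no spread over single libraries can be shown. The labels do not say whether libraries of a group came from separate cultures, so the p-values measure the spread between these libraries, which may be technical.

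Histones package DNA: H2A, H2B, H3 and H4 form the core of the nucleosome, and the linker histone H1 binds where DNA enters and leaves it. Most histone protein is made in S phase from the clustered genes, whose mRNAs characteristically end in a short stem-loop instead of a poly(A) tail. The stem-loop is bound by SLBP, and cleavage after it is guided by the U7 snRNP. A library selected for poly(A) RNA therefore captures these transcripts only in part, mainly the forms that are polyadenylated downstream of the stem-loop or spliced to a distant exon, which are known from cells that have left the cycle. The values below are levels of that poly(A) fraction, not of total histone mRNA.

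The stem-loop was looked up first, because it separates the ending these genes are known for from the poly(A) ending that the libraries select. Transcripts of GENCODE 29 on GRCh38 were searched on the sense strand, after the stop codon, for a stem of 6 paired bases (G with T pairs allowed) around a loop of 4 bases, with GG at its start, T closing the left arm, T opening the loop, A opening the right arm and CC at its end. The match was present in 16 of the 22 genes, and anywhere in a coding transcript in 273 of 19684 protein-coding genes (1.39%), 32 of them clustered histone genes. The sequences of 6 genes that the results below turn on, with all 4 core classes among them, are given with the 16-base match in capitals and 5 bases on each side in lower case.
HIST1H2AC: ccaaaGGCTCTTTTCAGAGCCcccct
HIST1H2BD: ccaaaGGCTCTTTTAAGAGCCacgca
HIST2H2BE: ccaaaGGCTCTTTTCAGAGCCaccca
HIST1H3E: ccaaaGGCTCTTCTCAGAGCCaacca
HIST1H4H: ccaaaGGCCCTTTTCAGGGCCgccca
HIST4H4: caaaaGGCCCTTTTCAGGGCCcccaa
The match began 28 to 56 bases after the stop codon. A poly(A) signal, AATAAA or ATTAAA on the sense strand, lay in the last 40 bases of an annotated coding transcript of 13 genes, and 12 genes had both features. The median of the mean base mean, not scaled for length, was 169 normalised counts for those 12. It was 15.2 for the 4 genes with the stem-loop alone (HIST1H2AI, HIST1H2BF, HIST1H4I and HIST4H4). HIST1H2BJ had the signal alone, but its unspliced transcript is annotated with no 3′ UTR, so only its spliced transcripts could be searched. A further 5 genes had neither, at a median of 21.9, among them HIST1H2BK at 2674 and HIST1H1C at 2260. Of these 5, HIST1H1C, HIST1H2BK, HIST1H3A and HIST2H2AC are annotated as coding sequence with no 3′ UTR, so their ends could not be searched.

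RFX7 itself was lower with its siRNA in the authors' deposited tables, by a log2 fold change of -2.42 ± 0.07 (SE) under DMSO and -2.37 ± 0.07 under Nutlin-3a, and its sign helped to settle the direction of the tables. With Nutlin-3a, CDKN1A, a p53 target that arrests the cycle, rose by 3.24 ± 0.04 in siControl and 2.98 ± 0.04 in siRFX7. Of the osteoblast lineage markers, RUNX2, SPARC and COL1A1 were listed with base means of 432, 31574 and 39039 in the siControl table of Nutlin-3a, but COL1A2 with 13.2. The epithelial keratin KRT8 stood at 24067 there and EPCAM at 191, while PTPRC, CD14, PECAM1 and CDH5 were under 7 and KRT19 and CD3E were not listed. The base means of a table added up to between 27946376 and 35311111 normalised counts.

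The clustered histone genes were a small and uneven part of the poly(A) RNA. The base mean, an average of normalised counts from the 8 libraries that a table compares, summed over the 22 genes to 0.0341% and 0.0274% of all base means in the Nutlin-3a tables (siControl first), and to 0.0348% and 0.0264% in the siRFX7 tables (DMSO first). The 5 highest genes of a table held 79.2% to 82.9% of the histone sum. Averaged over the 4 tables, base means ran from 8.87 for HIST1H2AI to 2674 for HIST1H2BK, with HIST1H1C at 2260, HIST1H2AC at 1408, HIST1H2BJ at 799 and HIST2H2BE at 798. Per kb of annotated exon, which allows levels of different genes to be compared, HIST1H2BK stood at 7019 and HIST1H1C at 3520 normalised counts, then HIST1H2AC at 844, HIST1H2BJ at 841, HIST1H2BD at 633, HIST2H2BE at 364, HIST1H2BC at 362 and HIST1H4H at 138. The other 14 were under 100 per kb, down to 5.89 for HIST2H4B. The lengths behind HIST1H2BK (381 bases) and HIST1H1C (642 bases) are those of coding sequence alone.

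Near-identical copies limit some of these values. In GENCODE 29, 74.1% of the 50-base windows of HIST1H2BK, 62.3% of those of HIST1H2AI, 30.5% of those of HIST2H2AC and 97.2% of those of HIST2H4B occur in transcripts of another gene, and how the authors counted reads that match 2 genes is not given in the sources used here. Values of these 4 genes are uncertain for that reason. HIST1H2BN overlaps an exon of HIST1H2AL on its own strand and of HIST1H2AK on the other. All 5 H4 genes encode 1 protein, and 9 of the 22 genes encode a protein that no other of the 22 encodes.

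Several of the most abundant clustered histone transcripts fell with Nutlin-3a in both siRNA groups, while 3 others rose in siControl. At an adjusted p under 0.05 (DESeq2's Wald test, Benjamini-Hochberg adjustment, in the authors' deposited tables), 8 of 22 genes (36.4%) were lower and 3 (13.6%) higher in siControl, where 19.6% of all 23353 genes were lower and 18.3% higher. In siRFX7, 6 (27.3%) were lower and 1 (4.55%) higher, against 20.3% and 18.7% of 21382 genes, so that the share of lower genes there was near that of all genes. The 6 genes lower in both groups were HIST1H1C, HIST1H2AC, HIST1H2BC, HIST1H2BJ, HIST1H2BK and HIST1H2BN, and HIST1H3E was higher in both. The shares of all genes lower or higher in both groups were not computed. HIST1H1C and HIST1H2BN lost the call in siControl after centring, described next. The median log2 fold change of the 22 genes was -0.20 in siControl and -0.28 in siRFX7, and that of all genes 0.01 in both. With log2 fold changes centred on the median of genes at base means of 100 or more, a shift of -0.03 in each table, the split was 5 lower and 3 higher in siControl and 6 lower and 2 higher in siRFX7. Calls over all genes were not counted after centring, so the shares given above do not apply to this split. Genes of S phase, when the clustered histone genes are most active, were lower with Nutlin-3a too (values given with the related genes), and fewer cells in S phase cannot be told apart from less histone mRNA per cell in bulk RNA.

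The calls came mostly from the better measured genes. Of the 10 genes at base means of 100 or more in every table, 7 were lower and 1 was higher in siControl, where 31.6% of all genes at that level were lower and 24.7% higher. In siRFX7, 6 of the 10 were lower and none higher, against 31.5% and 24.8%. Of the other 12 genes, 1 was lower and 2 were higher in siControl and 1 was higher in siRFX7. The shares of all genes under that level were not computed, so these counts have no background beside them. The SE of the 12 genes ran from 0.16 to 0.43 in siControl, against 0.04 to 0.13 for the 10. Changes of the size seen in the abundant genes were thus often not detectable in the 12.

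**Figure D1:**
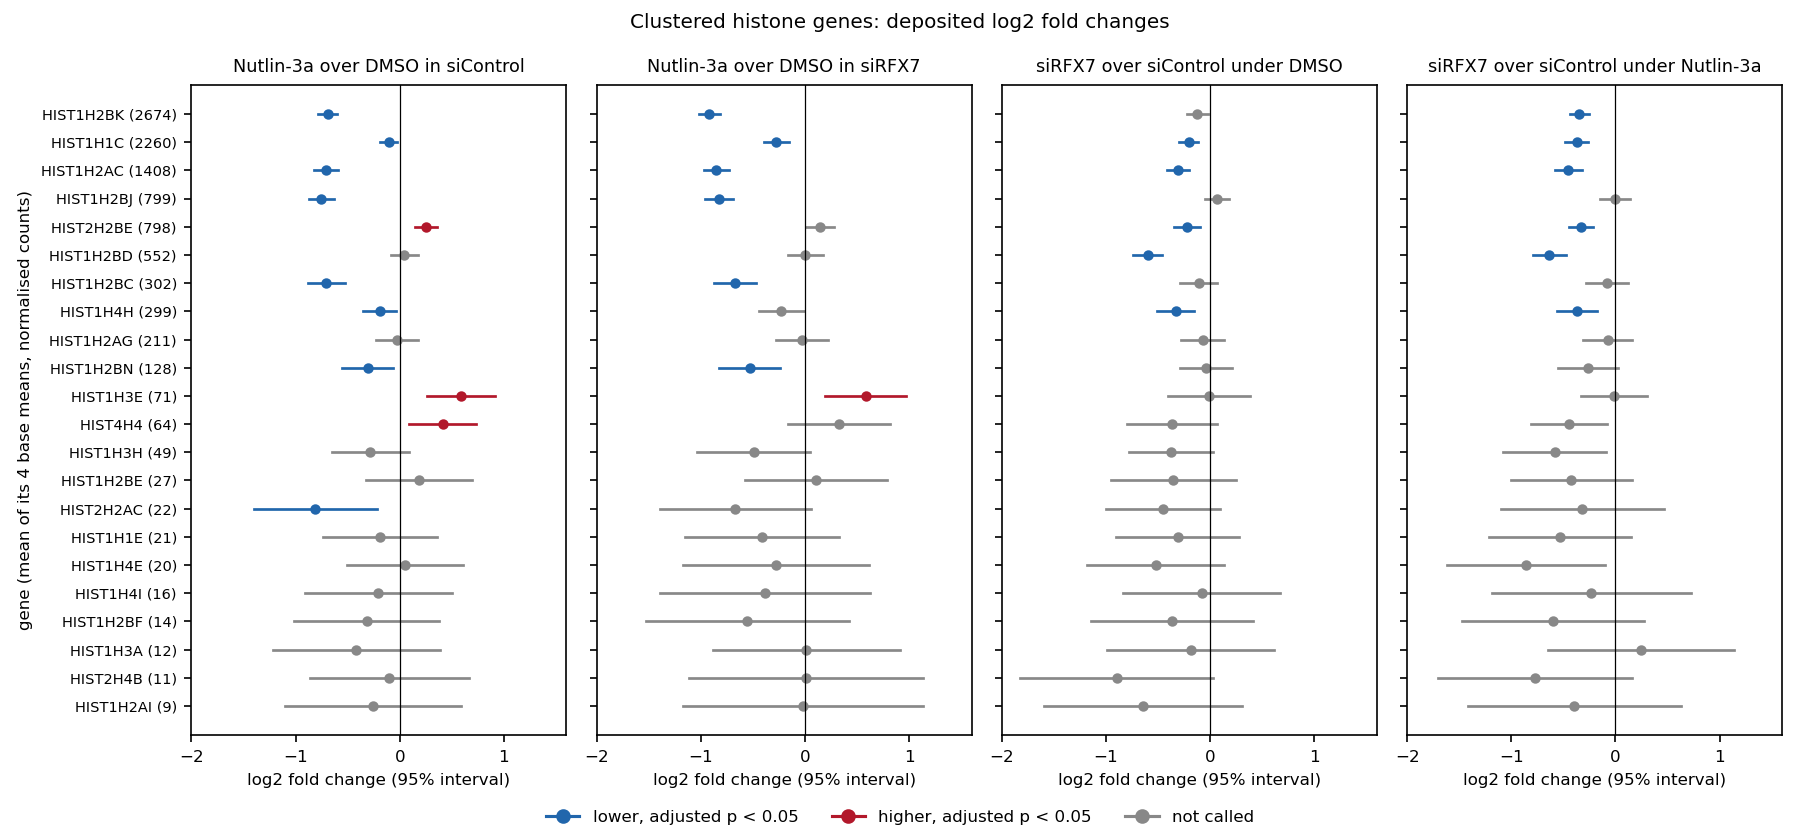
Log2 fold change (x axis) of each of the 22 genes (y axis, with the mean of its 4 base means in normalised counts) in the authors' 4 deposited comparisons of 4 against 4 libraries. Points are deposited values and lines 95% intervals from the deposited SE; blue marks genes lower and red genes higher at an adjusted p under 0.05, and grey genes that did not pass. HIST1H2AC, HIST1H2BC, HIST1H2BJ and HIST1H2BK sit near -0.7 in the first panel, whereas HIST1H2BD sits at 0 in the Nutlin-3a panels and near -0.6 in both siRFX7 panels.

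Among the H2B genes, HIST1H2BK (H2BC12; chr6:27146418-27146798, minus strand) was the highest. In the authors' deposited table for siControl its base mean of 3241 and its fold change place it at 4002 normalised counts with DMSO and 2480 with Nutlin-3a, a log2 fold change of -0.69 ± 0.05 (adjusted p = 1.70e-47, DESeq2). In siRFX7 it fell from 2792 to 1478, by 0.92 ± 0.05 on the log2 scale (base mean 2135, adjusted p = 4.65e-65, DESeq2). It thus stood at 62.0% and 52.9% of its DMSO level. HIST1H2BJ (H2BC11; chr6:27125897-27132750, minus strand) fell from 1128 to 669 in siControl, by 0.75 ± 0.06 (base mean 898, adjusted p = 7.75e-32, DESeq2). Its fall in siRFX7 was from 893 to 506, or 0.82 ± 0.07 (base mean 699, adjusted p = 2.91e-31, DESeq2). HIST1H2BC (H2BC4; chr6:26114873-26123926, minus strand) fell from 440 to 270 in siControl, by 0.71 ± 0.09 (base mean 355, adjusted p = 7.62e-14, DESeq2), and from 309 to 194 in siRFX7, by 0.67 ± 0.10 (base mean 251, adjusted p = 6.67e-10, DESeq2). The falls of these 3 genes were each at least 6 times their SE in both groups. HIST1H2BN, at base means of 152 and 105, changed by -0.31 ± 0.13 in siControl (adjusted p = 0.0393, DESeq2, and 0.0656 after centring) and -0.53 ± 0.15 in siRFX7 (adjusted p = 0.00135, DESeq2) in the authors' deposited tables.

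Of the other H2B genes, HIST2H2BE rose in siControl and HIST1H2BD showed no detectable change. HIST2H2BE (H2BC21; chr1:149884459-149886652, minus strand) was higher with Nutlin-3a in siControl in the authors' deposited table, at 907 normalised counts with DMSO and 1082 with Nutlin-3a, a log2 fold change of 0.25 ± 0.05 (base mean 994, adjusted p = 1.44e-05, DESeq2). In siRFX7 its change of 0.14 ± 0.07 (base mean 620) did not pass the test, with an adjusted p of 0.0944 as deposited and 0.0416 after centring. HIST1H2BD (H2BC5; chr6:26158146-26171349, plus strand) stood at 740 with DMSO and 764 with Nutlin-3a in siControl, and at 371 and 372 in siRFX7. Its log2 fold changes were 0.04 ± 0.07 (95% interval -0.09 to 0.18, base mean 752) and 0.00 ± 0.09 (-0.16 to 0.17, base mean 372). These intervals leave out the falls measured in HIST1H2BC, HIST1H2BJ and HIST1H2BK. HIST1H2BE and HIST1H2BF, with base means of at most 35.1 and 18.0, did not pass in either table. In siControl the interval of HIST1H2BF (-1.01 to 0.38) includes the falls of HIST1H2BC, HIST1H2BJ and HIST1H2BK. That of HIST1H2BE (-0.33 to 0.69) leaves these falls out but includes the smaller fall of HIST1H2BN.

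Of the H2A genes, HIST1H2AC (H2AC6; chr6:26124145-26139116, plus strand) carried most of the reads and fell with Nutlin-3a in both groups. In the authors' deposited tables it went from 2218 to 1355 normalised counts in siControl, a log2 fold change of -0.71 ± 0.06 (base mean 1786, adjusted p = 4.03e-33, DESeq2). In siRFX7 it went from 1357 to 752, a change of -0.85 ± 0.06 (base mean 1055, adjusted p = 2.30e-42, DESeq2). HIST1H2AG (H2AC11) stood at 248 with DMSO and 244 with Nutlin-3a in siControl, with a log2 fold change of -0.02 ± 0.10 (95% interval -0.22 to 0.18), and its values in siRFX7 were 180 and 176. HIST2H2AC (H2AC20) was low, at a base mean of 28.2, and its change of -0.81 ± 0.30 in siControl passed the test with an adjusted p of 0.0204 (DESeq2) but its change of -0.67 ± 0.37 in siRFX7 did not. HIST1H2AI had base means of 11.7 and 6.26 and did not pass.

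HIST1H1C (H1-2; chr6:26055787-26056428, minus strand), the linker histone gene with most reads, was nearly level by comparison. In the authors' deposited tables it stood at 2917 with DMSO and 2707 with Nutlin-3a in siControl, a log2 fold change of -0.11 ± 0.04 (base mean 2812, adjusted p = 0.0338, DESeq2). After centring, its adjusted p in siControl was 0.136. In siRFX7 it fell from 1920 to 1586, by 0.28 ± 0.06 (base mean 1753, adjusted p = 4.83e-05, DESeq2). HIST1H1E had a base mean of 27.0 in siControl and did not pass in either table.

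Apart from HIST1H4H, the H3 and H4 genes had base means under 100. HIST1H3E (H3C6; chr6:26224199-26227473, plus strand) rose with Nutlin-3a in both groups in the authors' deposited tables, from 65.3 to 98.1 normalised counts in siControl, a log2 fold change of 0.59 ± 0.17 (base mean 81.7, adjusted p = 0.00151, DESeq2). In siRFX7 the rise was from 49.2 to 73.7, or 0.58 ± 0.20 (base mean 61.5, adjusted p = 0.0102, DESeq2). HIST1H3A and HIST1H3H, with base means of at most 63.8, did not pass. HIST1H4H (H4C8; chr6:26277609-26285638, minus strand) was the H4 gene with most reads, and its change of -0.19 ± 0.08 in siControl (base mean 379) passed with an adjusted p of 0.0450 (DESeq2), or 0.0956 after centring. In siRFX7 its change of -0.23 ± 0.11 (base mean 226) had an adjusted p of 0.0861. HIST4H4 (H4C16; chr12:14767999-14771131, minus strand) was higher in siControl by 0.41 ± 0.16 (base mean 82.8, adjusted p = 0.0325, DESeq2), and its change of 0.33 ± 0.25 in siRFX7 (base mean 46.9) did not pass.

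**Figure D2:**
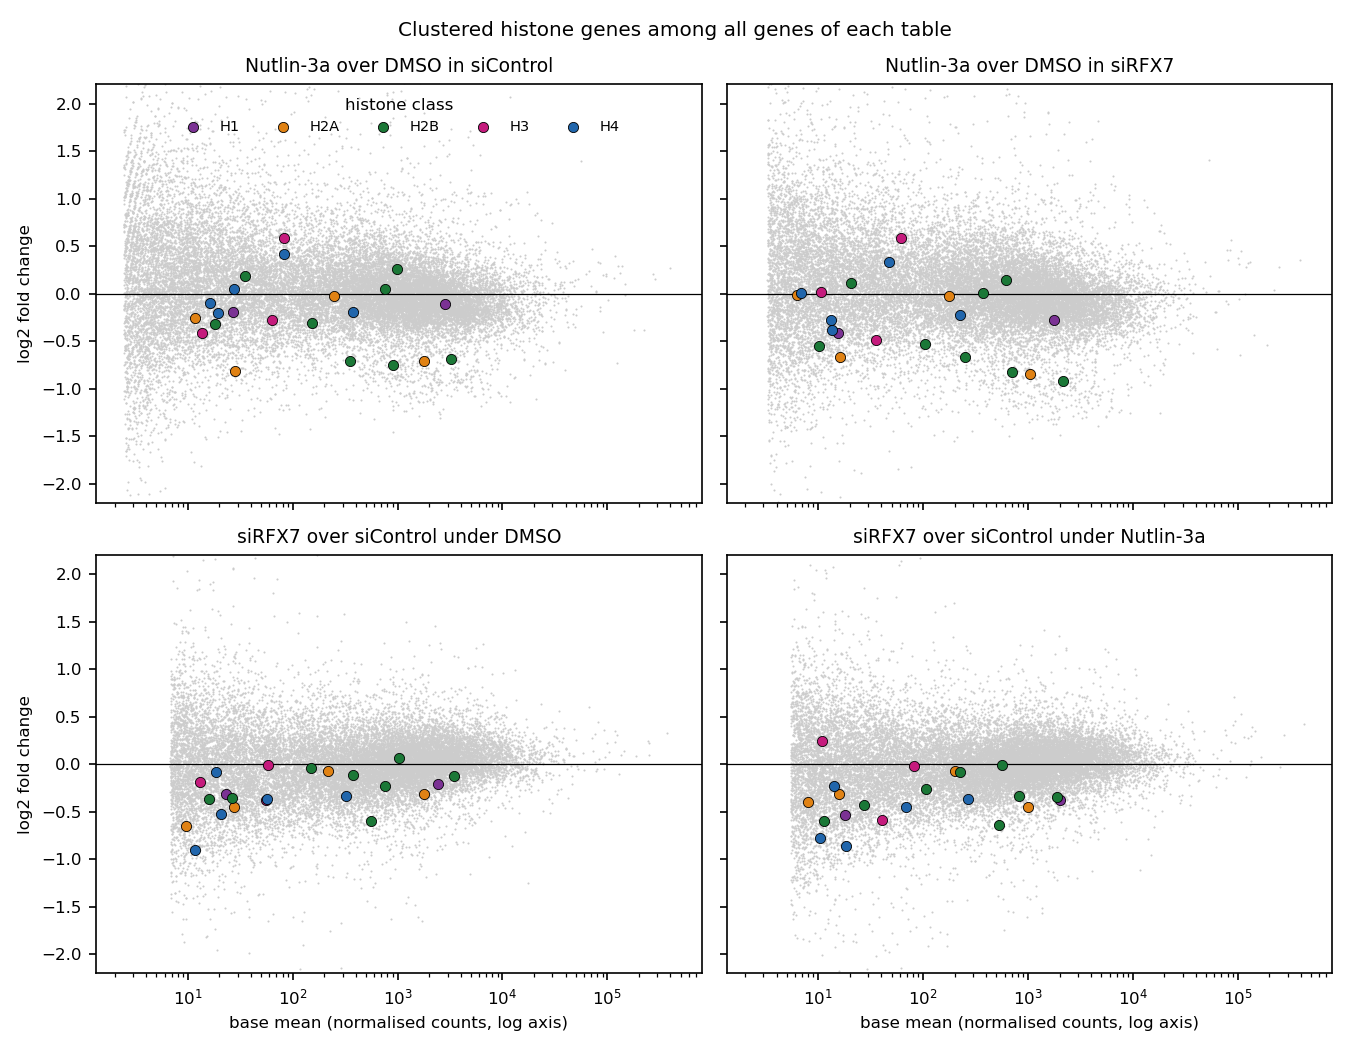
Log2 fold change (y axis) against base mean in normalised counts (x axis, log scale) for all genes of each deposited table (grey; a few genes beyond the axis are not drawn) and for the 22 clustered histone genes, coloured by class. In the Nutlin-3a panels the genes near -0.7 to -0.9 include the H2A and H2B genes of highest base mean, and in the siRFX7 panels 21 of 22 points lie below 0.

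With siRFX7, every called change of these genes was downwards. Under DMSO, 5 of 22 genes (22.7%) were lower with siRFX7 and 0 were higher in the authors' deposited table, where 17.5% of all 19511 genes were lower and 19.9% higher (DESeq2, adjusted p under 0.05). Under Nutlin-3a, 6 (27.3%) were lower and 0 higher, against 15.4% and 17.2% of 20335 genes. The share of lower genes under DMSO is thus near that of all genes. The 5 genes lower under both treatments were HIST1H1C, HIST1H2AC, HIST1H2BD, HIST1H4H and HIST2H2BE, and HIST1H2BK was lower under Nutlin-3a. What share of all genes was lower under both treatments was not computed. Some lineage markers were called with siRFX7 as well. At base means of 100 or more, 22.6% of all genes were lower and 27.1% higher in DMSO cells. In Nutlin-3a cells these shares were 20.6% and 24.6%. Of 6 osteoblast lineage genes, 1 was lower and 3 were higher in DMSO cells, and 1 lower and 2 higher in Nutlin-3a cells. SPP1 was among the lower, at -0.87 ± 0.16 and -0.60 ± 0.13. Of 5 epithelial genes, 4 were listed and 0 lower, with 2 higher in DMSO cells and 3 in Nutlin-3a cells, among them EPCAM at 0.54 ± 0.11 and 0.41 ± 0.11, and CDH1, at 0.85 ± 0.13 in DMSO cells. The summed level of the osteoblast genes was 61917 normalised counts in siControl and 76404 in siRFX7 with DMSO, and 62850 and 73585 with Nutlin-3a. That of the epithelial genes was 31706 in siControl and 33094 in siRFX7 with DMSO, and 31938 and 33890 with Nutlin-3a. The osteoblast sum is mostly COL1A1 and SPARC, with base means of 38660.5 and 29693.9 in DMSO cells. It does not describe the other genes of that list. CDKN1A was higher with siRFX7 too, by 0.60 ± 0.04 and 0.33 ± 0.04, and the part of these changes in the histone values was not tested.

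All calls with siRFX7 fell among the 10 genes at base means of 100 or more. Of these, 5 were lower under DMSO and 6 under Nutlin-3a, where 22.6% and 20.6% of all genes at that level were lower and 27.1% and 24.6% higher. Under each treatment 21 of the 22 log2 fold changes were negative, as were 9837 of 19511 and 10347 of 20335 over all genes, and the median of the 22 was -0.31 under DMSO and -0.37 under Nutlin-3a, against -0.00 and -0.01 for all genes. Over the 10 genes at base means of 100 or more the median was smaller under DMSO, at -0.16, and -0.34 under Nutlin-3a. The exceptions were HIST1H2BJ under DMSO, at 0.06 ± 0.06, and HIST1H3A under Nutlin-3a, at 0.25 ± 0.46. None of the 12 lower-count genes passed the test under either treatment, and the share of all low-count genes that passed was not computed. Genes of the list share libraries and, in part, sequence, so their common sign is a description and was given no test.

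HIST1H2BD showed the largest called change with siRFX7 and is described first. In the authors' deposited table under DMSO it stood at 666 normalised counts in siControl and 440 in siRFX7, a log2 fold change of -0.60 ± 0.07 (base mean 553, adjusted p = 4.64e-16, DESeq2). Under Nutlin-3a it stood at 645 and 415, a change of -0.64 ± 0.08 (base mean 530, adjusted p = 1.19e-13, DESeq2). The level with siRFX7 was 66.0% and 64.3% of that in siControl. HIST2H2BE went from 815 to 698 under DMSO, a change of -0.22 ± 0.06 (base mean 756, adjusted p = 0.00176, DESeq2), and from 914 to 726 under Nutlin-3a, a change of -0.33 ± 0.06 (base mean 820, adjusted p = 2.32e-07, DESeq2). HIST1H2BK changed by -0.12 ± 0.05 under DMSO (base mean 3448), which did not pass with an adjusted p of 0.0509 as deposited but had an adjusted p of 0.0279 after centring. Under Nutlin-3a it went from 2096 to 1649, a change of -0.35 ± 0.05 (base mean 1873, adjusted p = 9.30e-12, DESeq2).

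The other abundant H2B genes did not pass with siRFX7. HIST1H2BJ changed by 0.06 ± 0.06 (95% interval -0.05 to 0.18, base mean 1034) under DMSO and by -0.01 ± 0.07 (-0.15 to 0.14, base mean 565) under Nutlin-3a, both as the authors deposited them. HIST1H2BC changed by -0.11 ± 0.09 (base mean 380) and -0.08 ± 0.10 (base mean 223). HIST1H2BN changed by -0.04 ± 0.13 (base mean 149) and -0.26 ± 0.15 (base mean 105).

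In the remaining classes, the gene with most reads of H1, H2A and H4 was lower with siRFX7 under both treatments. HIST1H1C changed by -0.21 ± 0.05 under DMSO, from 2620 to 2271 normalised counts (base mean 2446, adjusted p = 9.15e-05, DESeq2), and by -0.37 ± 0.06 under Nutlin-3a, from 2288 to 1769 (base mean 2029, adjusted p = 2.24e-09, DESeq2). HIST1H2AC changed by -0.31 ± 0.05 under DMSO, from 1992 to 1606 (base mean 1799, adjusted p = 1.11e-07, DESeq2), and by -0.45 ± 0.07 under Nutlin-3a, from 1146 to 838 (base mean 992, adjusted p = 1.30e-10, DESeq2). HIST1H4H changed by -0.33 ± 0.09 under DMSO, from 363 to 289 (base mean 326, adjusted p = 0.00130, DESeq2), and by -0.37 ± 0.10 under Nutlin-3a, from 300 to 233 (base mean 266, adjusted p = 0.00103, DESeq2). HIST1H2AG, by contrast, changed by -0.07 ± 0.11 and -0.07 ± 0.12 (base means 217 and 202) and did not pass. The H3 gene HIST1H3E, which rose with Nutlin-3a, changed by -0.01 ± 0.20 and -0.01 ± 0.16 with siRFX7 (base means 58.6 and 82.5). HIST4H4 changed by -0.45 ± 0.19 under Nutlin-3a (base mean 69.1), with an adjusted p of 0.0509 as deposited and 0.0443 after centring.

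The siRFX7 and Nutlin-3a tables share libraries (the siControl DMSO libraries, for example, are the reference of both the first Nutlin-3a and the first siRFX7 table), so calls in them were set side by side by gene and no overlap between them was tested. HIST1H2BC, HIST1H2BJ and HIST1H2BN were lower in both Nutlin-3a tables and passed in neither siRFX7 table, though HIST1H2BN lost its siControl call after centring. HIST1H3E was higher in both Nutlin-3a tables and passed in neither siRFX7 table. HIST1H2BD was lower in both siRFX7 tables and passed in neither Nutlin-3a table. HIST1H2AC and HIST1H1C passed in all 4 tables. HIST2H2BE was lower with siRFX7 and, in siControl, higher with Nutlin-3a. In all, 10 of the 22 genes passed in no table, and the share of all genes that did so was not computed.

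Whether the Nutlin-3a response of a gene differed between the siRNA groups was tested by subtracting the siControl log2 fold change from the siRFX7 one, whose tables share no library. Of the 22 genes, 0 passed at an adjusted p under 0.05 (two-sided normal test, Benjamini-Hochberg adjustment over 21339 genes), where 0.937% of all genes did. At an unadjusted p under 0.05, 2 genes passed, and 6.32% of all genes did. HIST1H2BK had the lowest adjusted p, with a difference of -0.23 ± 0.07 (SE; 95% interval -0.37 to -0.09; adjusted p = 0.108, and 0.0687 to 0.539 over the alternatives). For HIST1H1C it was -0.17 ± 0.08 (adjusted p = 0.626). For HIST1H2AC the interval was -0.31 to 0.02, and for HIST1H2BD, which passed for siRFX7 under both treatments, -0.25 to 0.17. The median difference of the 22 genes was -0.08, with 17 negative, and that of all genes was -0.00, with 50.2% negative. A test that misses the threshold does not show that the responses were equal.

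**Figure D3:**
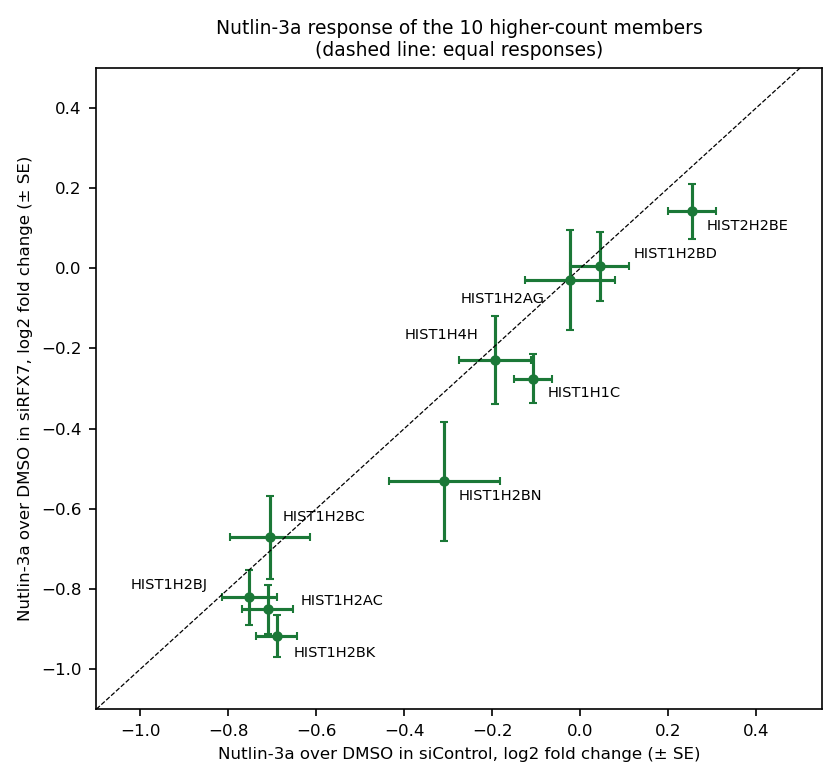
Log2 fold change with Nutlin-3a in siRFX7 (y axis) against that in siControl (x axis) for the 10 genes at base means of 100 or more in every table. Points are the authors' deposited values, bars their SE, and the dashed line marks equal responses; HIST1H2BK lies farthest below the line relative to its error, at -0.69 and -0.92.

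H2A and H2B genes are commonly arranged as divergent pairs that share the DNA between their starts, and 3 such pairs had both partners among the 22 genes. In GENCODE 29 the starts lie 219 bases apart for HIST1H2AC and HIST1H2BC, 292 for HIST1H2AG and HIST1H2BJ and 323 for HIST2H2AC and HIST2H2BE. Partners did not always change alike in the authors' deposited tables. With Nutlin-3a in siControl, HIST1H2AC and HIST1H2BC changed by -0.71 and -0.71, but with siRFX7 under Nutlin-3a by -0.45 and -0.08, with 95% intervals of -0.58 to -0.32 and -0.28 to 0.13. HIST1H2BJ changed by -0.75 with Nutlin-3a in siControl (95% interval -0.88 to -0.63), whereas its partner HIST1H2AG changed by -0.02 (-0.22 to 0.18). HIST2H2BE rose by 0.25 (0.15 to 0.36), while HIST2H2AC, at a base mean of 28.2, fell by 0.81 (-1.40 to -0.22). The intervals of the partners do not overlap in these last 3 contrasts, nor for HIST1H2AG and HIST1H2BJ with Nutlin-3a in siRFX7. They overlap in every other comparison of the 3 pairs. An example is HIST2H2AC (-1.40 to 0.06) and HIST2H2BE (0.01 to 0.28) with Nutlin-3a in siRFX7. HIST2H2AC also shares 30.5% of its 50-base windows with other genes. The differences between partners were not tested, since both genes come from the same libraries.

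**Figure D4:**
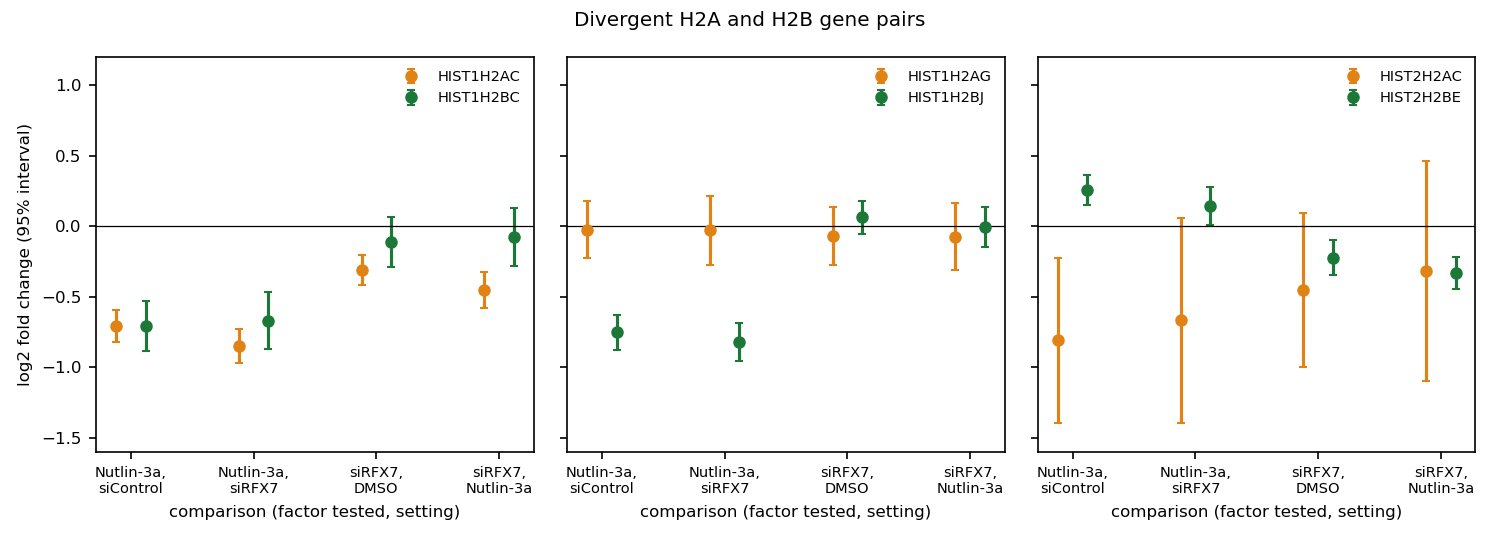
Log2 fold change (y axis) of both partners of 3 divergent H2A (orange) and H2B (green) gene pairs in the 4 deposited comparisons (x axis). Bars are 95% intervals from the deposited SE; HIST1H2AC and HIST1H2BC coincide in the first comparison, while HIST1H2AG stays near 0 where HIST1H2BJ is near -0.8.

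Promoter sequence was compared for the 6 H2B genes at base means of 100 or more in every table, because they divide into genes lower with Nutlin-3a in both groups (HIST1H2BC, HIST1H2BJ, HIST1H2BK, HIST1H2BN), the gene called for siRFX7 but not for Nutlin-3a (HIST1H2BD) and the gene that rose in siControl (HIST2H2BE). The 150 bases before each start, from RefSeq on GRCh38.p14, are shown 5′ to 3′ on the gene's own strand, with CCAAT or its complement ATTGG, the octamer ATTTGCAT and TATAAA in capitals.
HIST1H2BC, chr6:26123927-26124076, minus strand: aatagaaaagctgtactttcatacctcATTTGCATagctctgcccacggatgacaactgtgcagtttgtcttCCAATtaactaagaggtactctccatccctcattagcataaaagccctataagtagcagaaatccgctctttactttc
HIST1H2BJ, chr6:27132796-27132945, minus strand: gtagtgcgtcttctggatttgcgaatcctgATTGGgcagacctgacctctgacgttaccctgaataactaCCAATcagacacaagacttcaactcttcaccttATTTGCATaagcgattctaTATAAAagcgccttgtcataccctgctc
HIST1H2BK, chr6:27146859-27147008, minus strand: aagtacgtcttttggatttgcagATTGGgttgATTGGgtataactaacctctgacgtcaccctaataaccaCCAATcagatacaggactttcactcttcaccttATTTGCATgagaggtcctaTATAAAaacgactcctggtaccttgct
HIST1H2BN, chr6:27838419-27838568, plus strand: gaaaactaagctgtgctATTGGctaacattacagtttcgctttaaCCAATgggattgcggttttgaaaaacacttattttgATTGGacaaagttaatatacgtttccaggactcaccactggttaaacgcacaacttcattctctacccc
HIST1H2BD, chr6:26157971-26158120, plus strand: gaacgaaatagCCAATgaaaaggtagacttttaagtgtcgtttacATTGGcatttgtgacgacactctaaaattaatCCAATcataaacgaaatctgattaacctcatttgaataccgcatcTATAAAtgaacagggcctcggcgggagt
HIST2H2BE, chr1:149886683-149886832, minus strand: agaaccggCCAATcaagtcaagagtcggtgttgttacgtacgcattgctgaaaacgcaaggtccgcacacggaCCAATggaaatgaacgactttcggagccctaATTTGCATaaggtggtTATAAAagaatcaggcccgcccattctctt
CCAAT was present in all 6 stretches, ATTTGCAT in 4 and TATAAA in 4. The octamer was missing from HIST1H2BD and from HIST1H2BN, which fell with Nutlin-3a, and HIST2H2BE, which rose in siControl, held all 3 words, as HIST1H2BJ and HIST1H2BK did. A match is a run of letters and no measure of binding.

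Over all members the same words were counted in the 250 bases before the start, on both strands, in 35116 RefSeq promoters. All 22 genes were matched. CCAAT was present in 18 of 22 genes and 32.0% of all promoters, with all 4 H2A, all 8 H2B and all 3 H3 genes but 1 of 5 H4 genes holding it. ATTTGCAT was present in 9 genes and 1.63% of promoters, namely in 6 of 8 H2B genes and in 3 of 4 H2A genes. TATAAA was present in 15 genes and 10.7% of promoters. GGTCCG, chosen after the promoters were seen, was present in 7 genes, among them all 5 H4 genes, and in 9.43% of promoters. The cell cycle homology word TTTGAA was present in 4 genes and 13.3% of promoters, and its variant TTCGAA in 0 genes and 1.19%.

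The machinery that makes, handles and uses histones moved with Nutlin-3a as well. With Nutlin-3a in siControl, 14 of 15 S phase genes were lower and 0 higher in the authors' deposited table, with a median log2 fold change of -1.03, and in siRFX7 15 of 15 were lower, with a median of -1.18. Examples are MCM2, a subunit of the replicative helicase, at -1.18 ± 0.04, and E2F1, a transcription factor of S phase genes, at -1.17 ± 0.04, both in siControl. With siRFX7 under DMSO, 3 of the 15 were lower and 3 higher (median 0.01), and in Nutlin-3a cells 7 were lower and 1 was higher (median -0.12). At base means of 100 or more, 31.6% (siControl) and 31.5% (siRFX7) of all genes were lower with Nutlin-3a. With siRFX7, 22.6% were lower and 27.1% higher under DMSO, and 20.6% and 24.6% under Nutlin-3a. The Nutlin-3a response differed between siRNA groups for MCM2, by -0.20 ± 0.05 (adjusted p = 0.0170, two-sided normal test over 21339 genes as above), and for PCNA, the sliding clamp of replication, by -0.22 ± 0.05 (adjusted p = 0.00816), with a median difference of -0.15 over the list. Of the other 4 lists, CCNE1 (-0.28 ± 0.06) and HJURP (-0.28 ± 0.07), the chaperone of CENPA, passed that test. Alternative settings of the test were read out for the clustered histone genes only. The calls of MCM2, PCNA, CCNE1 and HJURP are therefore those of the main setting. The part of the S phase change in the histone values was not tested. All the clustered histone genes that fell did so by less than the S phase median in the same group.

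Genes of histone mRNA synthesis and 3′ end processing were lower in 21 of 27 cases in either siRNA group, with 0 higher and medians of -0.30 and -0.37, where 31.6% and 31.5% of all genes at base means of 100 or more were lower. With Nutlin-3a in siControl, SLBP, which binds the stem-loop, changed by -0.78 ± 0.05 in the authors' deposited table. NPAT, the coactivator of clustered histone genes, changed by -0.55 ± 0.06, and CASP8AP2, its partner at histone locus bodies, by -0.57 ± 0.07. LSM11, a U7 snRNP protein, changed by -0.50 ± 0.10 and ZNF473, which binds that particle, by -0.48 ± 0.06. With siRFX7 under DMSO this list had shares near those of all genes at that level (22.6% lower and 27.1% higher), with 7 lower, 6 higher and a median of 0.05, and under Nutlin-3a with 6 lower, 4 higher and a median of -0.03. SLBP did not pass with siRFX7, at 0.05 ± 0.05 and -0.05 ± 0.06. LSM11 was lower with siRFX7 under both treatments, at -0.44 ± 0.10 and -0.44 ± 0.12, and CCNE1, the cyclin whose kinase activates NPAT, was higher, at 0.82 ± 0.04 and 0.54 ± 0.04.

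Histone chaperones and the enzyme complex that acetylates new histones were lower with Nutlin-3a in 15 of 18 cases in either siRNA group. None was higher (0 in both), and the median was -0.42 in both. At base means of 100 or more, 31.6% and 31.5% of all genes were lower there, and 24.7% and 24.8% higher. CHAF1A, of the CAF-1 complex that deposits histones at the replication fork, changed by -1.12 ± 0.05 in siControl, and ASF1B, which carries H3 and H4, by -0.93 ± 0.05. With siRFX7 under DMSO, 3 were lower and 4 higher (median 0.02), and the Nutlin-3a cells had 4 lower and 1 higher (median -0.05). ASF1B was among the lower, at -0.54 ± 0.05 and -0.65 ± 0.07. The shares of all genes at that level with siRFX7 were 22.6% lower and 27.1% higher under DMSO. Under Nutlin-3a they were 20.6% and 24.6%. Of 8 genes of histone mRNA decay, 4 were lower and 1 was higher with Nutlin-3a in each siRNA group (medians -0.18 and -0.19). With siRFX7, 1 was lower and 2 were higher in DMSO cells (median 0.03), no more than the shares of all genes at that level. In Nutlin-3a cells 1 was lower and 4 were higher (median 0.12). ERI1, the exonuclease that trims histone mRNA ends, changed by -0.50 ± 0.05 with Nutlin-3a in siControl.

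The list of 12 histone genes outside the clusters holds mostly replication-independent variants with polyadenylated mRNA. H2AFX is an exception, since its mRNA is known to end either in the histone stem-loop or in a poly(A) tail. With Nutlin-3a 9 of 12 were lower and 1 was higher in siControl, and 9 were lower and 0 higher in siRFX7. The medians were -0.39 and -0.44 in the authors' deposited tables. At base means of 100 or more, 31.6% and 31.5% of all genes were lower there, and 24.7% and 24.8% higher. H2AFX, which is phosphorylated at DNA breaks, changed by -1.04 ± 0.05 in siControl, CENPA, the centromeric H3, by -1.05 ± 0.05, and H1F0, a linker histone of non-dividing cells, by -0.74 ± 0.04. With siRFX7 the 12 went both ways, with 5 lower and 4 higher in DMSO cells (median -0.05). In Nutlin-3a cells 7 were lower and 3 higher (median -0.24). The shares of all genes at that level were 22.6% lower and 27.1% higher in DMSO cells, and 20.6% and 24.6% in Nutlin-3a cells. H2AFZ was lower, at -0.25 ± 0.05 and -0.34 ± 0.05, and H3F3B was higher, at 0.26 ± 0.03 and 0.17 ± 0.04. In the clustered genes no call with siRFX7 was upwards, and the difference between the clustered genes and this list was not tested.

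**Figure D5:**
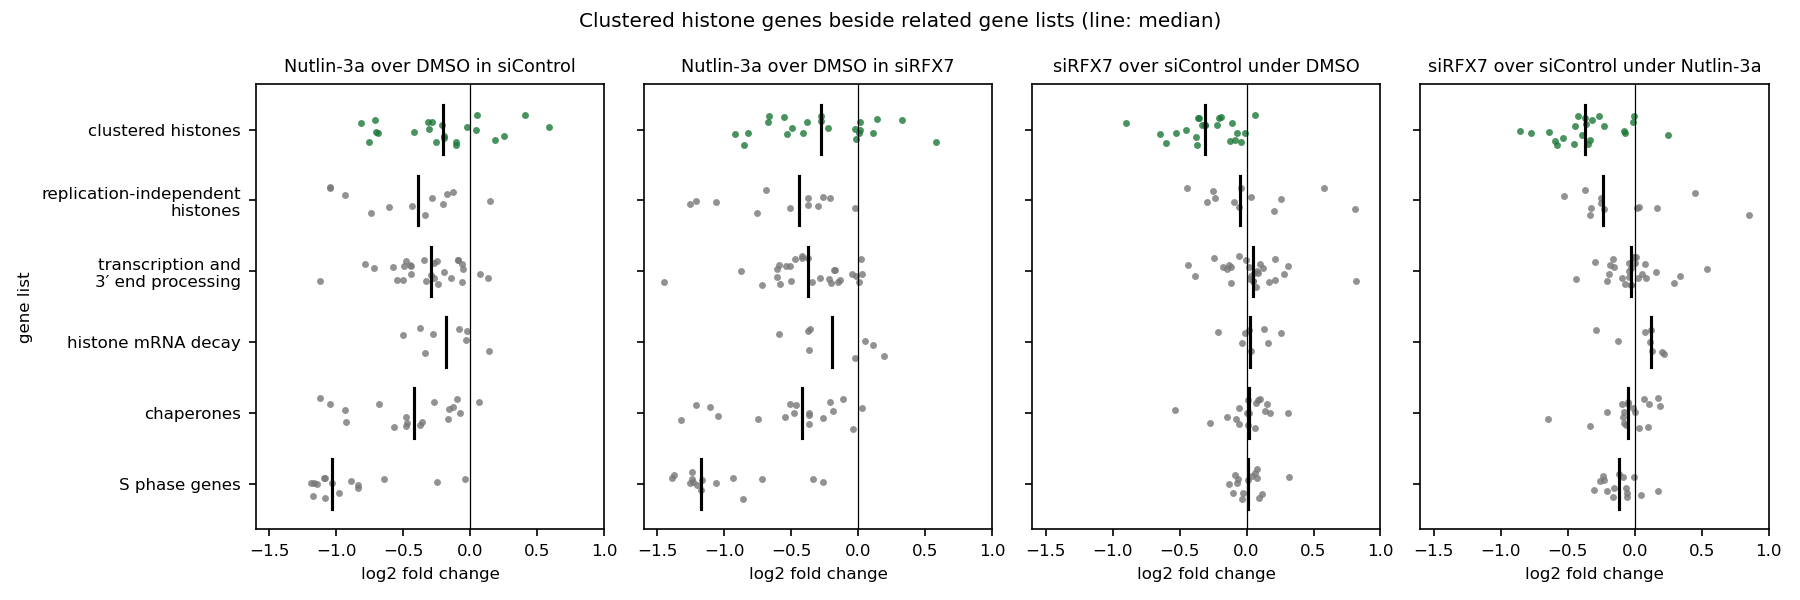
Log2 fold changes (x axis) of the clustered histone genes (green) and of 5 related gene lists (grey, y axis) in the 4 deposited comparisons; each point is 1 gene, with vertical jitter only, and black lines are medians. The S phase medians are -1.03 and -1.18 with Nutlin-3a and 0.01 and -0.12 with siRFX7, and the clustered histone medians lie between -0.20 and -0.37 in all 4 panels.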

How the data were processed

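Poly(A) RNA of 16 U2OS libraries (4 groups of 4) had been compared by the authors in 4 tables of 2 groups each. Per the submitters' processing notes, reads were processed with bcl2fastq 2.19.1.403, Trimmomatic 0.39, cutadapt 2.10, FastQC 0.11.9, SAMtools 1.10, Picard, featureCounts 1.6.5 and DESeq2 1.20.0 on hg38, and per the labels' protocols the library kit was stranded. The aligner, the gene annotation and the counting of reads that match several genes are not given in the sources used here.

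The base mean is a signal that the authors deposited, the mean normalised count of a table's libraries. The log2 fold changes and their SE are the authors' deposited values. The Wald statistic, a deposited score, equals their ratio to within 1.85e-13. Benjamini-Hochberg adjustment over a table's genes gives the deposited adjusted p-value to within 1.5e-15. The direction of the tables, which are not labelled with a numerator, was settled over 19344 genes: the difference of the Nutlin-3a responses equals that of the siRFX7 effects with an SD of the gap of 0.00291, against 0.514 with the siRFX7 tables inverted, and the signs of RFX7, CDKN1A and MDM2 fix the rest.

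The level of a group was computed from base mean and fold change, as the mean of both groups. It may be compared within a table only, since a group's level differed between its 2 tables by 8.45% to 20.5% over members and groups, most in siRFX7 with DMSO. Intervals are deposited values ± 1.96 SE and cover the error of 4 libraries a group. The difference of responses was tested with a two-sided normal test (SE from both deposited SEs, scipy 1.17.1, pandas 2.3.3, numpy 2.4.6) after a check on simulated data. No columns of single libraries were in the tables used. Sequences and positions came from GENCODE 29 (99.85% of table genes matched by identifier) and RefSeq promoters.

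The members and lists were chosen with earlier results of these data known. Named genes were, per comparison, the 5 highest and 5 lowest called members, the 5 with the highest base mean and the highest of each class; the other members and list genes named were chosen with their values seen. Alternatives covered thresholds, base mean limits, centring and the choice of members.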

Additional observations from a re-analysis of the deposited data

How the results depend on the processing

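No paired analysis was possible because the tables hold no value of a single library, and for the same reason leaving out replicates, another normalisation and edgeR were not run. The count of called members for Nutlin-3a in siControl was 11 as deposited and 6 (4 lower, 2 higher) at an adjusted p under 0.01. The count for siRFX7 under DMSO was 5 as deposited and 3 with a size of at least 0.25 asked as well. Over the 9 members whose protein no other member encodes, the median for Nutlin-3a was -0.31 in siControl (-0.20 over all) and -0.53 in siRFX7 (-0.28). The median for siRFX7 under DMSO was -0.31, and -0.16 over the 10 members at base means of 100 or more. The other counts and medians stayed within 1.5 times of the deposited value, and the count for the difference of responses was 0 under all 5 alternatives. Of 128 alternatives of single members, 119 kept direction and call, 2 changed sign after centring without passing in either setting (HIST1H2AG for Nutlin-3a in siControl, 0.0036, and HIST1H2AI for Nutlin-3a in siRFX7, 0.0076), 3 lost the call (HIST1H1C, HIST1H2BN and HIST1H4H for Nutlin-3a in siControl after centring, adjusted p = 0.136, 0.0656 and 0.0956 from the two-sided normal test over all genes) and 4 gained it (HIST2H2BE, HIST4H4, and HIST1H2BK under DMSO in 2 settings). The setting that leaves out members with shared sequence was chosen after seeing the data. Low counts limit the 12 members under a base mean of 100, with SEs up to 0.59.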
